A study of Mus musculus with 6 samples.

Results

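The genes described here are 9 components of the route from insulin to glucose uptake in skeletal muscle. They are the insulin receptor Insr, its substrates Irs1 and Irs2, the regulatory PI3-kinase subunit Pik3r1, the kinase Akt2, the Rab GTPase-activating proteins (Rab-GAPs) Tbc1d1 and Tbc1d4, and the glucose transporters Slc2a1 (GLUT1) and Slc2a4 (GLUT4). They were chosen by symbol, as rows of the deposited table of normalized counts matched through the GENCODE M21 annotation, and all 9 were found among its 54393 genes. RNA was sequenced from the tibialis anterior, a muscle of the lower hind leg rich in fast fibres, of adult mice, with 3 wild-type (WT) muscles, whose titles begin with C57, and 3 muscles of mice with a Dock3 knockout (Dock3 KO). Dock3 encodes an exchange factor that activates the small GTPase Rac1. The comparison asks how adult muscle RNA differs between Dock3 KO and WT. The labels give neither the design of the Dock3 allele nor the sex or further strain details of the mice. Loss of Dock3 and a difference in strain background therefore cannot be told apart. Nothing in the labels says whether each muscle came from a separate animal, so p-values measure the spread between these samples.

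Insulin binds its receptor, a tyrosine kinase, which phosphorylates the IRS adaptors. These recruit PI3-kinase, whose lipid product brings Akt to the membrane and lets it be activated. Akt2, the isoform most tied to glucose handling in muscle, phosphorylates TBC1D4 (AS160). That relieves its brake on the Rab proteins that carry GLUT4 vesicles to the cell surface. TBC1D1, the paralog, receives signals from AMPK and contraction as well as from Akt. In mice TBC1D1 is the more abundant of the pair in fast muscle and TBC1D4 in slow muscle. GLUT1 serves basal uptake and is also made by endothelial cells and the sheath of nerves. The assay measures RNA and not phosphorylation or protein, and in whole muscle fewer cells of a type and less RNA per cell cannot be told apart.

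Between Dock3 KO and WT muscle 1 of the 9 genes passed the test, Tbc1d4, and 10 of 19 alternative settings kept that call. Tbc1d4 RNA rose 2.98-fold (95% confidence interval 2.05 to 4.33), from 191 ± 22.4 to 591 ± 184 normalized counts (SD, n = 3 each). The other 8 genes, Insr, Irs1, Irs2, Pik3r1, Akt2, Tbc1d1, Slc2a1 and Slc2a4, did not pass the test. Their 95% intervals for the fold change together ran from 0.541 to 1.78. Among 16031 genes tested, 71 passed as higher in Dock3 KO, 0.443%, and 94 as lower, 0.586%, so 1.03% passed in all (limma with Benjamini-Hochberg adjustment over all genes, threshold 0.05). With the samples rescaled to the same total, 41 passed as higher and 136 as lower, and without Gm42418 and Lars2 in that total 52 and 110. Tbc1d4 missed the threshold in the former setting (limma adjusted p 0.0573) and passed in the latter (0.0292). All 9 genes were among those tested, which were required to average 10 normalized counts or more. The median log2 difference, Dock3 KO minus WT, was 0.15 for the 9 genes, 0.09 without Tbc1d4, and -0.01 for all genes tested. Unless an alternative setting is named, each log2 difference is that of log2(normalized count + 1). Each fold change with an interval is that difference back-transformed, so it can differ from the ratio of the group means. For Tbc1d4 the knockout mean was 309% of the WT mean.

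The start of Tbc1d4 and those of its paralog Tbc1d1 are shown because these genes encode proteins with the same activity and only Tbc1d4 passed the test. The sequences are RefSeq promoter windows on GRCm38.p6, from 250 bases before a transcription start to 50 bases after it, read 5′ to 3′ on the strand of the gene. RefSeq gives 1 start for Tbc1d4, at chr14:101609142-101609441 on the minus strand, and 2 for Tbc1d1, at chr5:64160010-64160309 and chr5:64230107-64230406 on the plus strand. Capitals mark matches, on either strand, to the GC box GGGCGG and the E-box CAGCTG.
Tbc1d4: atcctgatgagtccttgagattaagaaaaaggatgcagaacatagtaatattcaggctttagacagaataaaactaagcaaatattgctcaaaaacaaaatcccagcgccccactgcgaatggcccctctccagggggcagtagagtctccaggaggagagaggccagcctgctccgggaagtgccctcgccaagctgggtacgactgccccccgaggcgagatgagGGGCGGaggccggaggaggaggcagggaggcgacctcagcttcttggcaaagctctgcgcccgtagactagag
Tbc1d1, start 1: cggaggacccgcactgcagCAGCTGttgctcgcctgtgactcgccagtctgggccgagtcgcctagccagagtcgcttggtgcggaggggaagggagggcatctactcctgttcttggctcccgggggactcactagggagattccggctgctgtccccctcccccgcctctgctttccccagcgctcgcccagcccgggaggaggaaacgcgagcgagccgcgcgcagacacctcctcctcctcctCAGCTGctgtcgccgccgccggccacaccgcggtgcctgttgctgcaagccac
Tbc1d1, start 2: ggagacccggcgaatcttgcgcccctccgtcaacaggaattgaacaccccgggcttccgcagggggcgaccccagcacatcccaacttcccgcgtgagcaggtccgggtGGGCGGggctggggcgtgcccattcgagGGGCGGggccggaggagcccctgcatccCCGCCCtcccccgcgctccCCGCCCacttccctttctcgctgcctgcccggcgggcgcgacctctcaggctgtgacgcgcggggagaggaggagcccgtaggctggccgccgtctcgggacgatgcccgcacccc
The Tbc1d4 window held 1 GC box, at position -23 from the start. The upstream Tbc1d1 window held the E-box CAGCTG at -231 and -3, and the downstream one held 4 GC boxes. A GC box occurs in 35.7% of 32851 RefSeq windows of this length and CAGCTG in 16.3%. GC content was 55.7% for Tbc1d4 and 69.3% and 74.0% for Tbc1d1, beside a median of 52.7% for all windows. The E-box CACGTG was found in the windows of both IRS genes, at -115 for Irs1 and -44 for Irs2. The FoxO motif GTAAACA, the E-box CACGTG, the TATA box TATAAA, the MEF2 motif and the cAMP response element TGACGTCA, also searched on both strands, had no match in these 3 windows, and occur in 3.65%, 7.15%, 13.6%, 3.69% and 1.79% of all windows. A match is a run of letters and not a shown binding site. RefSeq windows were found for 7 of the 9 genes.

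Before the results, the libraries were compared. Normalized counts of the targeted gene, Dock3, were 169, 161 and 118 in WT muscle, and 22.4 in knockout replicate 1, 1.78 in replicate 2 and 1.54 in replicate 3. Replicate 1 thus retained 15.0% of the WT mean, and the others 1.19% and 1.03%. Normalized counts summed to 23520223 to 33393950 per sample, which, from the step between the lowest values, corresponds to approximately 21700000 to 32400000 reads. A pair of transcripts, Gm42418 and Lars2, made up 3.00% to 3.64% of the sum in the WT samples and Dock3 KO replicate 3, and 17.9% and 20.3% in Dock3 KO replicates 1 and 2. Those 2 libraries also had the fewest reads, and they are set apart where a result rests on them. The 8 muscle fibre markers, such as Acta1 and Ckm, summed to 1450792 to 1710753 normalized counts in WT and 1530096 to 1676346 in Dock3 KO, so the markers of the labelled tissue were abundant in every sample.

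Tbc1d4 (ENSMUSG00000033083; chromosome 14, 101442360 to 101609191, minus strand, GENCODE M21 on GRCm38) gave normalized counts of 214 in WT replicate 1, 190.1 in replicate 3 and 169 in replicate 4. The knockout muscles gave 378 in replicate 1, 686 in replicate 2 and 707 in replicate 3. Each Dock3 KO muscle lay above every WT muscle, at 1.98, 3.59 and 3.70 times the WT mean. Replicate 1, the library that retained the most Dock3 RNA, was the lowest of the knockout group, and without it the log2 difference was 1.87 (limma adjusted p 0.00153). The part of the retained Dock3 RNA in this value was not tested. The log2 difference was 1.58 (standard error 0.24, limma adjusted p 0.0123). By p, Tbc1d4 stood at place 95 among the 165 genes past the threshold. By exact permutation, two-sided, p was 0.1, the lowest value open to 3 against 3 samples. Tbc1d4 was the only one of the 9 genes whose groups did not overlap between genotypes. Of all genes tested, 16.2% did not overlap, and 7.6% did so with the knockout higher.

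**Figure D1:**
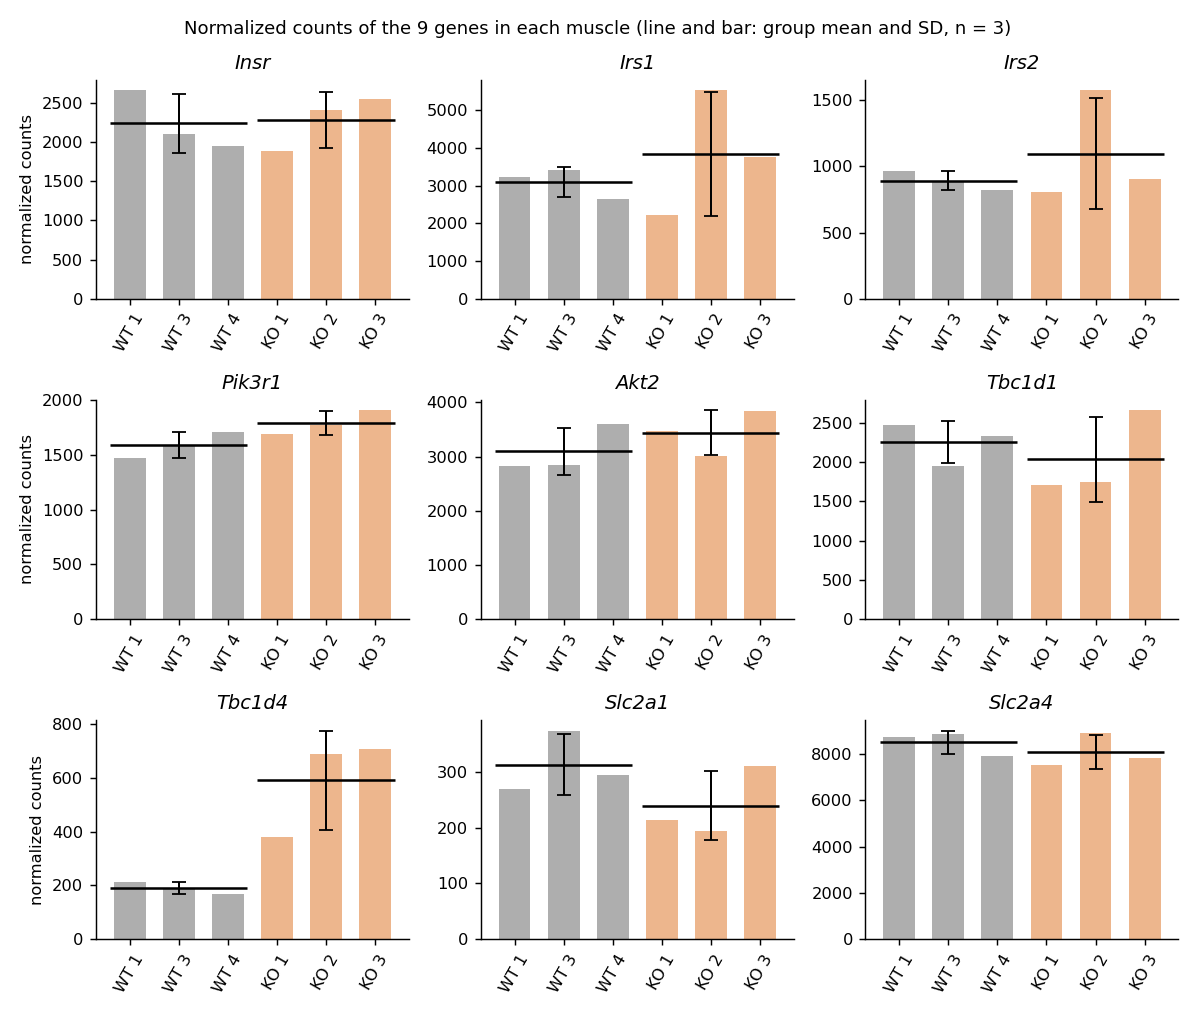
Normalized counts (vertical axis, from 0, with its own range for each gene) of the 9 genes in each of the 3 WT muscles (grey bars) and 3 Dock3 KO muscles (orange bars); horizontal lines and error bars are group means and SD. Tbc1d4 lies between 169 and 214 in WT and between 378 and 707 in Dock3 KO, while the groups of the other 8 genes overlap.

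The direction for Tbc1d4 was the same in all 19 alternative settings, with log2 differences from 1.30 to 1.90, and 10 of the 19 kept the call (limma adjusted p from 0.0014 to 0.116). It missed the threshold when samples were rescaled to the same total (adjusted p 0.0573), with a prior variance without trend (0.116), with log2 Gm42418 as a covariate (0.103), with the replicate number as a block (0.0622), without WT replicate 3 (0.0547) or 4 (0.0724), and without Dock3 KO replicate 2 (0.0904) or 3 (0.0705) (limma in each case). Without Dock3 KO replicates 1 and 2, a fit of 3 samples against 1 that assumes the lone sample varies like WT, the difference was 1.89 (limma adjusted p 0.0564).

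**Figure D2:**
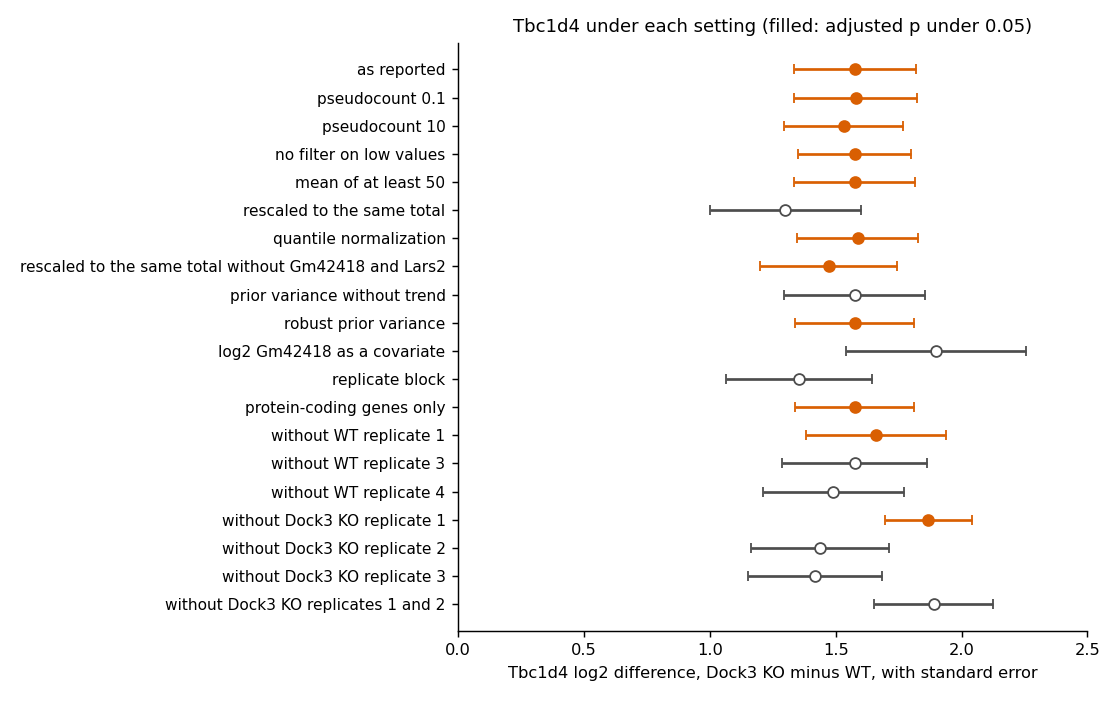
Log2 difference of Tbc1d4, Dock3 KO minus WT (horizontal axis), with its standard error under each analysis setting (rows); filled orange points have an adjusted p under 0.05 and open grey points do not. The estimates run from 1.30 to 1.90, all above 0, and 9 of the 19 alternatives are open.

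Tbc1d1 (ENSMUSG00000029174; chromosome 5, 64156305 to 64351486, plus strand) had normalized counts of 2477, 1956 and 2333 in WT muscle and 1704, 1748 and 2660.2 in knockout muscle. Dock3 KO replicates 1 and 2 lay below all WT muscles and replicate 3 above them. The log2 difference was -0.17, with a 95% interval of -0.58 to 0.24 (limma adjusted p 0.830). Per kilobase of annotated exon, Tbc1d1 stood at 305 normalized counts and Tbc1d4 at 24.9 in WT, a 12.2-fold difference in level. In Dock3 KO the levels per kilobase were 275 and 76.9, a 3.58-fold difference. The table has 1 value per gene, so long and short forms of either Rab-GAP are not separated.

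Within a sample, a ratio of 2 genes hardly depends on that sample's scaling. The log2 ratio of Tbc1d4 to Tbc1d1 was -3.53, -3.36 and -3.78 in WT and -2.17, -1.35 and -1.91 in Dock3 KO. Every knockout ratio was higher than every WT ratio, and the means differed by 1.75 (exact two-sided permutation p = 0.1, the smallest possible, and 0.3 after adjustment over the 3 ratios examined). The ratio of Irs2 to Irs1 differed by 0.02 (exact permutation p = 1, adjusted 1) and that of Slc2a4 to Slc2a1 by 0.33 (exact permutation p = 0.3, adjusted 0.45), and both pairs overlapped between genotypes.

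**Figure D3:**
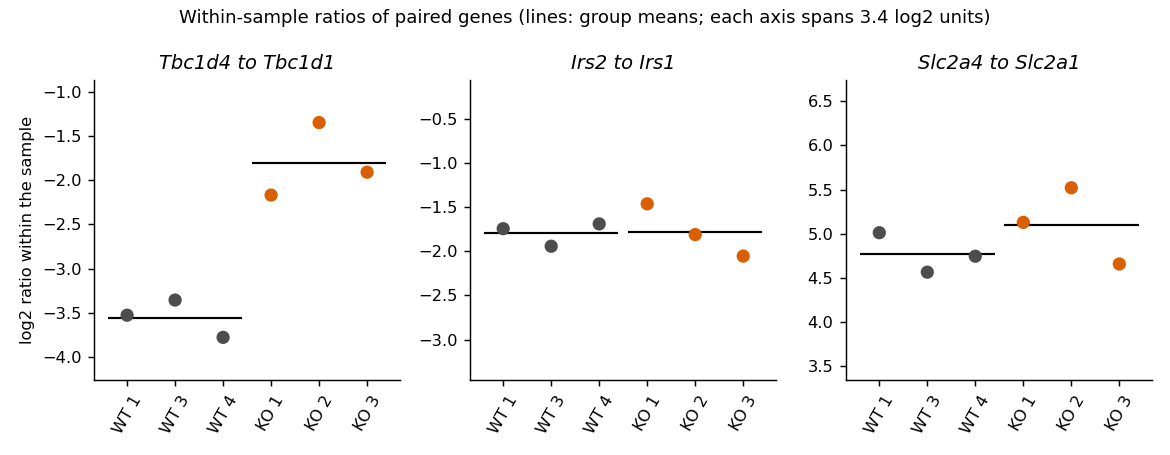
Log2 ratio of the normalized counts of paired genes within each sample (vertical axis) for 3 WT muscles (grey) and 3 Dock3 KO muscles (orange), with group means as lines. The ratio of Tbc1d4 to Tbc1d1 separates the genotypes, at -3.78 to -3.36 against -2.17 to -1.35, and the others overlap.

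The receptor and its substrates did not pass the test. Insr (ENSMUSG00000005534; chromosome 8, 3122061 to 3279617, minus strand) had normalized counts of 2665, 2107 and 1954 in WT muscle and 1882, 2409 and 2556 in knockout muscle. The groups overlapped, and the 95% interval of the fold change was 0.791 to 1.31. Irs1 (ENSMUSG00000055980; chromosome 1, 82233101 to 82291416, minus strand), the main IRS adaptor of muscle, had normalized counts of 3237, 3425 and 2658 in WT muscle and 2232, 5538 and 3757 in knockout muscle. The knockout muscles lay on both sides of the WT range, so that the coefficient of variation was 43.1% in Dock3 KO and 12.9% in WT. Irs2 (ENSMUSG00000038894; chromosome 8, 10984681 to 11008458, minus strand) had normalized counts of 965, 889.9 and 823 in WT muscle and 809, 1577 and 904 in knockout muscle. Only Dock3 KO replicate 2 lay above the WT muscles. Intervals for the fold change were 0.761 to 1.78 for Irs1 and 0.829 to 1.67 for Irs2, with limma adjusted p-values of 0.863 and 0.796. Without Dock3 KO replicate 2 the log2 differences were -0.09 for Irs1 and -0.06 for Irs2.

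The library that was highest for both IRS genes, Dock3 KO replicate 2, was also highest for many genes known to rise in fasting or under FoxO factors, which Akt restrains. Of 17 such genes, 10 (58.8%) had their highest value of the 6 samples in Dock3 KO replicate 2, beside 17.2% of all genes tested. The rest were highest in Dock3 KO replicate 1 (3), WT replicate 4 (3) or WT replicate 3 (1). Pdk4, a kinase that switches off pyruvate dehydrogenase, had 11092 normalized counts in that library, 3125 and 4307 in the other knockouts, and 908 to 1581 in WT. Ucp3, a mitochondrial carrier induced by fatty acids, had 2942 there, 809 and 1378 in the other knockouts, and 333 to 552 in WT. Other genes of the list did not follow. Gadd45b had 162 there and 354 to 452 in WT, and Cdkn1a had 224 there and 237 to 308 in WT. The ubiquitin ligases Fbxo32 (5295 there, 3184 to 5652 in WT) and Trim63 (2143 there, 1888 to 2789 in WT) lay within the WT range. These observations were made after the values were seen and rest on 1 library. It had the largest share of Gm42418 and Lars2, 20.3%, and the fewest reads. Of the slow and oxidative fibre markers, 55.6% were also highest in that library. The part of fasting or FoxO factors, of fibre type or of the Gm42418 and Lars2 share in the Irs1 and Irs2 values was not tested.

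The PI3-kinase subunit and the kinase below the substrates did not pass the test either. Pik3r1 (ENSMUSG00000041417; chromosome 13, 101680563 to 101768217, minus strand), which couples IRS proteins to the catalytic PI3-kinase subunit, had normalized counts of 1476, 1578 and 1710.4 in WT muscle and 1695, 1776 and 1907 in knockout muscle. The groups overlapped by a single knockout value, and the fold change was 1.13, with a 95% interval of 0.935 to 1.36 (limma adjusted p 0.699). Akt2 (ENSMUSG00000004056; chromosome 7, 27591552 to 27640826, plus strand) had normalized counts of 2834, 2849.8 and 3603 in WT muscle and 3466, 3011 and 3838 in knockout muscle. Its groups overlapped, with a fold change of 1.11 and a 95% interval of 0.888 to 1.39 (limma adjusted p 0.791). A processed pseudogene, Akt2-ps on chromosome 11 (16514533 to 16515981), shares 98.6% identity with Akt2 over 1449 bases, so reads could be assigned to either. It had normalized counts of 41.96, 34.97 and 36.04 in WT muscle and 7.09, 0 and 3.11 in knockout muscle (limma adjusted p 0.0774). The mean of Akt2-ps, which is a separate entry of the table, equalled 1.217% of that of Akt2 in WT and 0.0989% in Dock3 KO. The other 8 genes had no near-identical copy by the search used.

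Of the transporters, GLUT4 carries most insulin-stimulated uptake in muscle. Slc2a4 (ENSMUSG00000018566; chromosome 11, 69942539 to 69948188, minus strand) had normalized counts of 8733, 8872 and 7936 in WT muscle and 7536, 8918 and 7846 in knockout muscle. Dock3 KO replicates 1 and 3 lay just below the WT muscles and replicate 2 just above them. The fold change was 0.950, with a 95% interval of 0.783 to 1.15 (limma adjusted p 0.910). Slc2a1 (ENSMUSG00000028645; chromosome 4, 119108711 to 119137983, plus strand) had normalized counts of 269.8, 374 and 295 in WT muscle and 215, 193 and 310.0 in knockout muscle. Replicates 1 and 2 of Dock3 KO lay below the WT muscles and replicate 3 among them. The fold change was 0.757, with a 95% interval of 0.541 to 1.06 (limma adjusted p 0.583). Without Dock3 KO replicates 1 and 2, the log2 difference of Slc2a1 was 0.00064 and that of Tbc1d1 0.25. For both genes the values below the WT muscles were those of Dock3 KO replicates 1 and 2, the libraries with a large share of Gm42418 and Lars2. With log2 Gm42418 as a covariate, the log2 differences were 0.074 for Slc2a1 and 0.28 for Tbc1d1, and neither passed. No WT library had such a share, so this fit cannot assign the low values to the share or to genotype. The part of these transcripts in the low values was not tested.

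**Figure D4:**
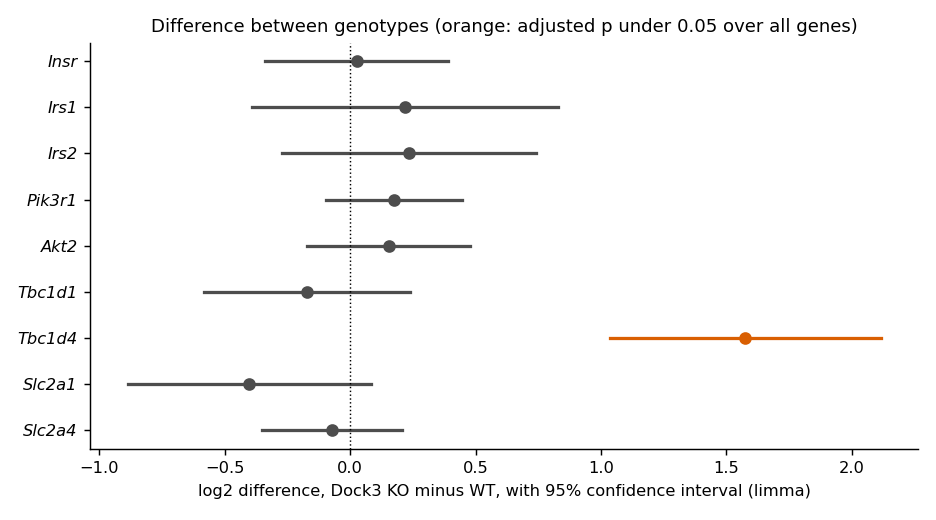
Log2 difference between genotypes, Dock3 KO minus WT (horizontal axis), for the 9 genes, with 95% confidence intervals from limma; orange marks an adjusted p under 0.05. Tbc1d4 stands at 1.58, and the intervals of the other 8 genes include 0.

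Ordered by level per kilobase of annotated exon in WT, the genes ran from Slc2a4 at 2448 ± 145 normalized counts, through Akt2 at 434 ± 61.7, Irs1 at 340 ± 43.7, Tbc1d1 at 305 ± 36.4, Insr at 163 ± 27.2, Pik3r1 at 158 ± 11.6 and Irs2 at 141 ± 11.3, to Slc2a1 at 89.2 ± 15.5 and Tbc1d4 at 24.9 ± 2.92 (SD, n = 3). The muscles' ranges overlapped between Irs1 and Tbc1d1, between Insr and Pik3r1 and between Pik3r1 and Irs2, so those neighbours are not ordered beyond their spread. In Dock3 KO the lowest places were taken by Tbc1d4 at 76.9 ± 24.0 and Slc2a1 at 68.2 ± 17.7 (SD, n = 3), whose ranges overlapped. By level per kilobase, Tbc1d4 exceeded 35.9% of tested genes in WT and 63.6% in Dock3 KO, and Slc2a4 exceeded 98.2% and 98.1%.

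The rest of the pathway was read from 7 lists of 139 further genes, of which 130 were tested. Across them 2 genes rose, 1.54% beside 0.443% of all genes tested, 0 fell, beside 0.586%, and the median log2 difference was 0.02 (limma with Benjamini-Hochberg adjustment). A count of 2 is too small to set the lists apart from that background. At an unadjusted p under 0.05 there were 7 higher and 11 lower, 18 of 130, beside 10.5% of all genes tested. Over all 16031 genes tested, 772 were higher and 913 lower at that p. The genes that rose were Sik1 and Pdk4. Sik1, a salt-inducible kinase related to AMPK, had normalized counts of 362, 405 and 440 in WT muscle and 798, 1139 and 719 in knockout muscle, a log2 difference of 1.11 (limma adjusted p 0.0205). The groups did not overlap. The log2 difference of Pdk4 was 2.23 (limma adjusted p 0.0301). Sik1 missed the threshold in 9 of the 19 alternatives. These were rescaling to the same total (limma adjusted p 0.0785), a prior variance without trend (0.147), the Gm42418 covariate (0.511), the replicate block (0.0912), and leaving out WT replicate 1 (0.0852), 3 (0.0854) or 4 (0.0656), Dock3 KO replicate 2 (0.0594) or Dock3 KO replicates 1 and 2 (0.344). Pdk4 missed it in 7 of 19. These were a prior variance without trend (limma adjusted p 0.2095) or robust (0.212), the covariate (0.526), and leaving out WT replicate 3 (0.125) or 4 (0.129), Dock3 KO replicate 3 (0.0833) or Dock3 KO replicates 1 and 2 (0.122). The lowest limma adjusted p over the alternatives was 0.00536 for Sik1 and 0.00206 for Pdk4. Without Dock3 KO replicates 1 and 2 the log2 differences were 0.84 for Sik1 and 1.93 for Pdk4.

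In the signalling lists none of 54 tested genes passed the threshold. An unadjusted limma p under 0.05 was found for 7 of 54, 2 higher and 5 lower, beside 10.5% of all genes tested. The lower genes include Aplp2 of the activating list (log2 difference -0.28, unadjusted limma p 0.0305). Aplp2 encodes an amyloid precursor-like protein and is not an established activating component of insulin signalling. Activating components (20 tested, median -0.03) had their smallest p for Pik3cd, the PI3-kinase catalytic subunit best known from leukocytes, at 124 ± 37.4 normalized counts in WT muscle and 228 ± 14.2 in knockout muscle (SD, n = 3; limma adjusted p 0.171). Restraining components (21 tested, median 0.02) had it for Grb10, an adaptor that inhibits the receptor, at 861 ± 46.8 and 1162 ± 168 (limma adjusted p 0.292). Targets of Akt (13 tested, median 0.07) had it for Pfkfb2, which makes an activator of glycolysis, at 400.2 ± 44.1 and 246 ± 27.9 (limma adjusted p 0.109).

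None of 39 tested genes of the GLUT4 vesicle, its Rabs, SNAREs and tethers passed. An unadjusted limma p under 0.05 was found for 4 of 39, all 4 lower, beside 10.5% of all genes tested. That count does not set the list apart from all genes, and the list median was -0.00036. The smallest p belonged to Rab4a, a Rab of recycling endosomes, at 288 ± 24.9 normalized counts in WT and 178 ± 32.3 in Dock3 KO (limma adjusted p 0.162). Of the other 12 glucose transporters, 6 were tested and 0 passed, with 1 at an unadjusted limma p under 0.05. That was Slc2a3 (GLUT3), at 213 ± 24.5 and 147 ± 27.1 (limma adjusted p 0.361). Among 14 AMPK subunits, related kinases and their partners, Sik1 was the only one to pass, and the median was 0.01. An unadjusted limma p under 0.05 was found for 2, 1 higher (Sik1) and 1 lower. The lower was the AMPK subunit Prkag3, at 2203 ± 288 and 1559 ± 246 (limma adjusted p 0.234). In the fasting and FoxO list (17 tested, median 0.14), Pdk4 alone passed, and 4 had an unadjusted limma p under 0.05, all 4 higher. A count of 4 is too small to set this list apart from the 10.5% of all genes tested.

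**Figure D5:**
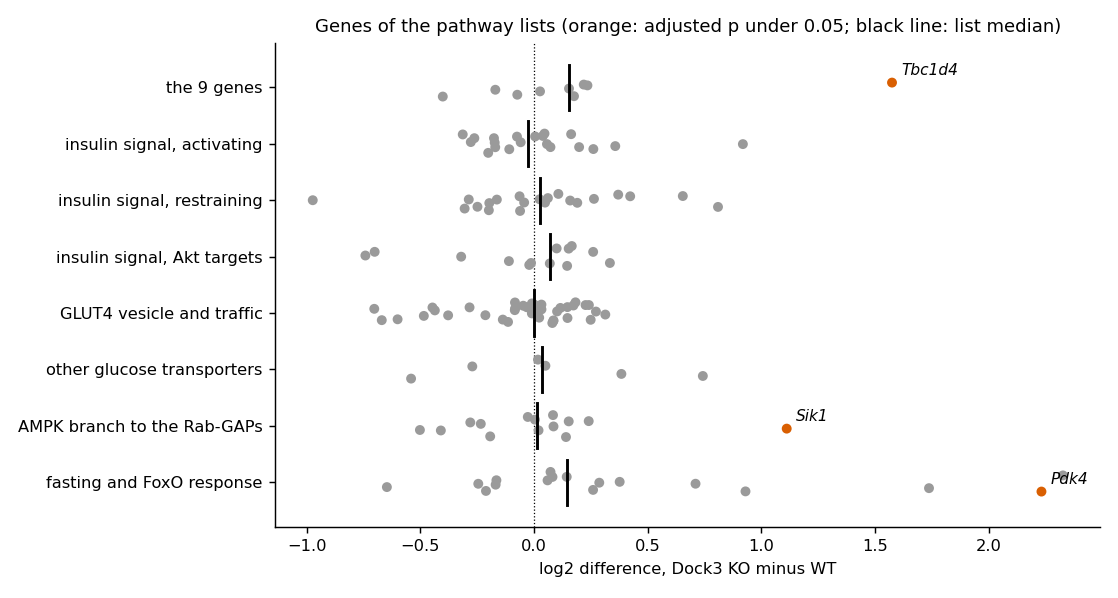
Log2 difference between genotypes, Dock3 KO minus WT (horizontal axis), of each tested gene (points) in the 9 genes and the 7 pathway lists (rows), with list medians as black lines; orange points have an adjusted p under 0.05. Tbc1d4, Sik1 and Pdk4 are orange, and the list medians lie between -0.03 and 0.15.

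Markers of fibre types and of other cells were summed in each sample beside these values. Of 9 slow and oxidative fibre markers and of 9 fast glycolytic ones, 0 passed (limma, with 0 at an unadjusted p under 0.05 in both lists). The slow and oxidative sum ran from 9236 to 16652 normalized counts in WT and from 12679 to 19023 in Dock3 KO. Myh2, the myosin of fast oxidative IIA fibres, made up 78.8% to 88.2% of it in each sample, so it does not measure slow fibres. Without Myh2 the sum was 1827, 1964 and 2102 in WT muscle and 1572, 2711 and 2441 in knockout muscle. Myh7, which defines slow fibres, was at 16.3, 69.7 and 83.2 in WT and 18.4, 323 and 91.0 in Dock3 KO. These values overlapped between genotypes. Dock3 KO replicate 1, the lowest of its group for Tbc1d4, was also its lowest for the sum with and without Myh2 and for Myh7. In WT this was not so. WT replicate 1, the highest of its group for Tbc1d4, was its lowest for these same measures. The part of fibre type in the Tbc1d4 values was not tested.

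Endothelial markers (0 of 10 passed) summed to 5678 to 7516 normalized counts in WT and 5641 to 7038 in Dock3 KO. Erythrocyte markers (0 of 7) summed to 28575 to 54971 and 37000 to 97782, with all 7 highest in Dock3 KO replicate 1. Adipocyte markers (0 of 10) summed to 9370 to 11652 and 10446 to 13943. Nerve and Schwann cell markers (0 of 8) summed to 1605 to 2146 and 1715 to 2055. Macrophage markers (0 of 8) summed to 4253 to 4672 and 3808 to 4267. Fibroblast markers summed to 63058 to 70167 and 64926 to 74068, and 2 of 8, the collagens Col1a1 and Col3a1, rose. The log2 differences of 4 other fibroblast markers were negative, at -0.47 for Pi16, -0.48 for Lum, -0.28 for Dcn and -0.06 for Gsn, and did not pass. Those of Pdgfra and Dpt were positive, at 0.15 and 0.26, and did not pass either. At an unadjusted limma p under 0.05 there were 0 endothelial, 1 erythrocyte, 2 adipocyte, 1 nerve, 0 macrophage and 3 fibroblast markers. That p was reached by 10.5% of all genes tested. The 3 fibroblast markers were both collagens and, as lower, Pi16. No marker was at 0 in all samples, and 1, Gfap of the nerve list, was at 0 in WT replicate 4 and Dock3 KO replicates 2 and 3. The part of these cells in the values above was not tested.

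None of the 9 genes lies on chromosome 9, which carries Dock3. Within 1 Mb of Tbc1d4 there were 4 other tested genes, and 0 of them passed (limma). Tbc1d4 overlaps the processed pseudogene Gm34417 on its own strand without shared exon bases, and Gm34417 was listed at 2.78 at most. Irs1 shares 2822 exon bases with Gm9747 on the other strand, which was listed at 7.15 at most, and whether counting used strand is not given in the sources used here. The transcripts whose mean-centred log2 values over the 6 samples were nearest to those of Tbc1d4, by root mean square difference among all tested genes, were C130075A20Rik (0.12), Dnase1l2 (0.17) and AI506816 (0.17). AI506816, a non-coding transcript on chromosome 5, had normalized counts of 110, 106 and 95.04 in WT muscle and 285, 418 and 437 in knockout muscle (limma adjusted p 0.00169). The other two were low, at 7.66 to 18.8 in WT and 22.6 to 61.2 in Dock3 KO, and did not pass.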

How the data were processed

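The authors deposited 1 table of normalized counts for 54393 genes and 6 samples, with values that are not whole and totals that differ between samples, handled as a signal. The submitters' processing notes list FastQC, Trim Galore 0.4.5, Salmon 0.12.0, DESeq2 1.22.1 and R 3.5.3, with the builds mm10 and GRCm38. The annotation, the use of strand and the scaling factors are not given in the sources used here. Total RNA was depleted of ribosomal RNA and sequenced as stranded read pairs, per the labels' protocols. Genotypes came from the genotype labels and replicate numbers from the titles.

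Symbols, positions and exon lengths came from GENCODE M21. Genes with a mean of at least 10 were compared with limma 3.58.1 in R 4.3.3 on log2(value + 1), with a prior variance that follows expression, no covariates and Benjamini-Hochberg adjustment over all genes. Intervals are at 95%. Precision rests on the 3 samples per group, since the table holds no read counts. The steps were tested on simulated data. Permutation tests were exact (scipy 1.17.1 in Python 3.11.15). Copies were searched with blastn 2.17.0, at 95% identity or more over at least 50% of the shorter transcript and at least 100 bases.

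The 9 genes and the lists were chosen with earlier results of these data known. Named were the 9 genes, from each pathway list every gene past the threshold or else the one with the smallest p, and the 3 nearest patterns. Akt2-ps, Ucp3, Gadd45b, Cdkn1a, Fbxo32, Trim63, Aplp2, Prkag3 and the single markers were named after their values were seen. Alternatives covered pseudocounts of 0.1 and 10, filters, scalings, the prior variance, a Gm42418 covariate, a replicate block, protein-coding genes only and samples left out.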

Additional observations from a re-analysis of the deposited data

How the results depend on the processing

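The fit without Dock3 KO replicates 1 and 2 was chosen after seeing the data. The cause of a moved value was not tested. Of the 9 genes, 1 passed as reported (Tbc1d4). The number was 0 when rescaled to the same total, with a prior variance without trend, with log2 Gm42418 as a covariate, with the replicate block and without Dock3 KO replicates 1 and 2, and 0 to 1 over the 6 fits that left out 1 sample each. It stayed at 1 with other pseudocounts and filters, quantile normalization, rescaling without Gm42418 and Lars2, a robust prior variance and protein-coding genes only. Over all genes, 165 passed as reported, 104 with a prior variance without trend, 57 with the Gm42418 covariate, 104 of protein-coding genes only (fewer genes tested), 49 without Dock3 KO replicates 1 and 2 (fewer samples), and 98 to 159 with 1 sample left out. Of the pathway lists 2 genes passed as reported, 1 when rescaled to the same total, 0 without trend, 1 with a robust prior variance, 0 with the covariate, 1 with the replicate block, 0 without Dock3 KO replicates 1 and 2, and 0 to 4 with 1 sample left out. Rescaling to the same total moved the median of all genes to -0.28 and the share of calls that were higher from 43.0% to 23.2%. Rescaling without Gm42418 and Lars2 moved them to -0.11 and 32.1%. Relative to that median Tbc1d4 stood at 1.58 in both.

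Differences that did not pass changed sign as follows. Rescaled to the same total, Insr stood at -0.25, Irs1 at -0.057, Irs2 at -0.041, Pik3r1 at -0.10 and Akt2 at -0.12. Insr stood at -0.014 with quantile normalization and -0.077 when rescaled without Gm42418 and Lars2. With the Gm42418 covariate Irs2 stood at -0.033, Slc2a1 at 0.074 and Tbc1d1 at 0.28. Without Dock3 KO replicates 1 and 2, Slc2a1 stood at 0.00064 and Tbc1d1 at 0.25. With 1 sample left out, Insr ranged from -0.067 to 0.16, Irs1 from -0.093 to 0.56, Irs2 from -0.059 to 0.42 and the difference in the log2 ratio of Irs2 to Irs1 from -0.14 to 0.16.

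With the replicate block, Tbc1d4 stood at 1.36 (limma adjusted p 0.0622), Insr at -0.11, Irs1 at -0.20 and Irs2 at -0.12. Only numbers 1 and 3 occur in both genotypes, and departures from the group mean had correlations of 0.065 and 0.0066 over genes within these pairs, so that the numbers were not taken as pairing. That fit has 1 residual degree of freedom. Tests on whole reads were not run, since the table holds normalized values.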
